A study of Drosophila melanogaster with 23 samples.

Results

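The loci of 5 Drosophila segmentation genes, prd, slp1, slp2, opa and D, were examined in 22 lists of chromatin immunoprecipitation peaks. An interval counted as a member when its summit, the position of highest signal, lay within 10 kb of one of these genes. There were 899 such intervals among 942072 in all lists. Of them 175 lay at prd, 272 at slp1 and slp2, 313 at opa and 139 at D. The windows of slp1 and slp2 overlap, so these neighbouring genes were treated as 1 locus wherever sites were counted.

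All chromatin came from wild-type Oregon-R embryos 2 to 3 h after egg laying, with no mutant or treated group. ChIP-nexus, in which an exonuclease trims the bound DNA up to the protein, was done for 6 transcription factors with 3 libraries per factor. Those of the anteroposterior axis are Bicoid, called Bcd, a homeodomain morphogen of the anterior, and Caudal, called Cad, a homeodomain factor of the posterior. Those of the dorsoventral axis are Dorsal, called Dl, an NF-kappaB factor of the ventral side, and Twist, called Twi, a bHLH factor of the mesoderm. The other factors, Zelda, called Zld, and the GAGA factor, called GAF, help to open chromatin before and during the onset of zygotic transcription. The histone marks H3K27ac and H3K4me1 were mapped by ChIP-seq with 2 libraries each. Whole embryos were used, so a peak is an average over all nuclei and cannot tell strong binding in few cells from weak binding in many.

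Pair-rule genes are expressed in stripes and turn the broad domains of maternal and gap proteins into repeated segments. The primary ones read the maternal and gap proteins directly through separate stripe enhancers, while prd, slp1 and slp2 take much of their pattern from other pair-rule proteins and are therefore called secondary. The genes opa and D are expressed in broad domains and act in the timing of the segmentation cascade, D early and opa at the change to the final, finer pattern. Of the proteins they encode, Paired carries a paired domain and a homeodomain, Sloppy paired 1 and 2 are forkhead factors, Odd-paired is a zinc finger factor of the Zic family, and Dichaete is a Sox factor.

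The genes lie, in dm6 coordinates, at 2L:12082995-12085827 (prd), 2L:3825675-3827099 (slp1), 2L:3836840-3839185 (slp2), 3R:4852813-4869979 (opa) and 3L:14175610-14178620 (D). Strand was not given in the gene table, so positions are stated as before the start coordinate or past the end coordinate, with no reading of upstream or downstream. Whether a site lies in an exon, intron or UTR was not analysed here. Other protein-coding genes reach into the windows at prd (CG14947, Pex19 and CG6712), opa (laf) and D (nan), and a peak there cannot be assigned to one gene. The slp1 and slp2 window held no other gene.

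Of the 899 intervals, 714 came from ChIP-nexus and 185 from ChIP-seq. ChIP-nexus members had fold enrichments from 1.38 to 43.1 with a median of 3.20, and widths from 150 to 2117 bp. The outermost ChIP-nexus member of each locus lay 8951 to 9963 bp from its gene with a fold of 1.79 to 3.90, and the nearest ChIP-nexus interval left out lay 10017 to 10187 bp away with a fold of 1.77 to 6.74. Fold, p and rank are the authors' own values for each peak and serve here only to order peaks within a list. Among the 6 factors, Twi had the highest mean number of intervals at each locus, with 12.3 ± 1.15 at prd, 19.7 ± 0.577 at slp1 and slp2, 16.3 ± 0.577 at opa and 8.67 ± 1.53 at D (SD, n = 3). Bcd had 4 in every library at prd and 9 in every library at slp1 and slp2, against 14.3 ± 2.08 at opa. At D the lowest mean was that of GAF, 3.33 ± 1.53. The lists differ in length, with 27232 to 31013 ranked intervals for GAF and 39696 to 54449 for the other factors. As a share of these, members of all loci were 0.114% to 0.129% for Twi and 0.103% to 0.125% for GAF. For Bcd, Cad, Dl and Zld the share was 0.0604% to 0.0884%, so a low GAF count goes with its short lists. The number of intervals says little about strength, since Twi, with the most, ranked below Bcd at all 5 genes.

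Strength was compared by rank. Each library's peaks were ordered by p, and the best-ranked interval near a gene was expressed as a top percent, its rank as a percentage of the list, so that 0.01 is nearer the top than 1. The labels do not say whether the libraries of a factor came from separate embryo collections, so p-values measure the spread between these libraries, which may be technical.

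**Figure D1:**
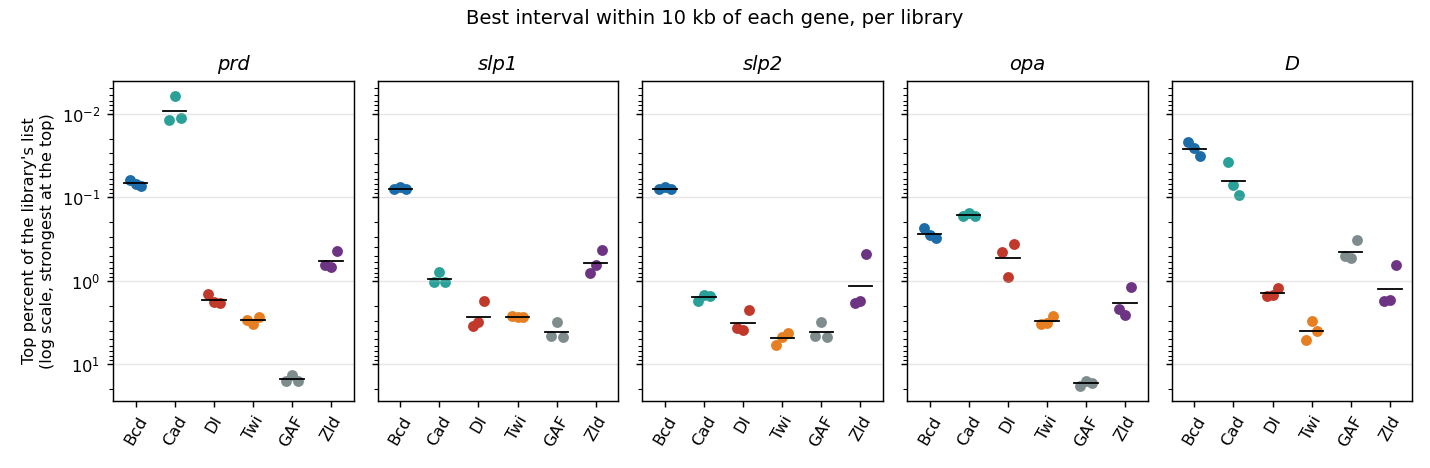
Top percent of the best-ranked interval within 10 kb of each gene, on a log axis with the strongest at the top. Points are libraries (3 per factor) and bars are geometric means. Cad and Bcd lie above Dl and Twi at all 5 genes, and GAF is lowest at prd, slp1 and opa but above Zld, Dl and Twi at D.

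At prd the best Cad interval was among the strongest Cad peaks of the genome. It ranked 5, 3 and 5 in the 3 libraries, at 2L:12080979-12081708 in replicate 1, with a fold of 31.0 ± 1.76 (SD, n = 3). Only 0.0647% of the 13911 protein-coding genes had a Cad interval at least as near the top. Bcd followed at ranks 34, 35 and 34, and its interval at the same place shared the locus with a second of nearly equal rank, 2L:12088932-12089827, which was the best in replicate 1. Zld ranked 274, 314 and 230, and Dl 712, 707 and 1004. The Zld interval of replicate 2 lay inside the neighbouring gene Pex19, apart from those of the other Zld libraries. Twi had its best interval at 1292, 1497 and 1395, also inside Pex19. GAF was lowest, at 4324, 4184 and 4291, although the fold of its interval was 21.3 ± 3.33. In top percent, no factor's range at prd overlapped that of the next factor.

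At slp1 and slp2 the strongest factor was Bcd. The same interval served both genes, 2L:3833637-3834657 in replicate 1, between the genes and nearer to slp2, with ranks of 44, 38 and 37. Another Bcd site lay 858 bp before slp1 with a top percent of 0.0819 to 0.0906, almost level with it. Near slp1 the Zld libraries had top percents of 0.800, 0.655 and 0.428 and the Cad libraries 1.05, 0.794 and 1.03, and these ranges overlapped. Dl lay between 1.75 and 3.51, Twi between 2.64 and 2.75, and GAF between 3.13 and 4.78. This GAF interval is the one 155 bp before slp2, which lies within 10 kb of both genes. At the site 87 bp before slp1, GAF lay between 4.7 and 6.4. Dl and Twi could not be ordered near slp1, nor could Dl, GAF and Twi in their neighbouring pairs near slp2.

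At opa, Cad and Bcd led with the ranges of their libraries apart. Cad ranked 70, 77 and 75 and Bcd 127, 142 and 142, both in a wide interval before the start coordinate, 3R:4848777-4849943 for Cad replicate 1. Dl followed, at 222, 359 and 196, with an interval inside the gene, 3R:4854162-4854575 in replicate 1. This was the best Dl place among the 5 genes, with 4.26% of all genes at least as near the top. Zld lay between 1.18 and 2.55 top percent, Twi between 2.66 and 3.34, and GAF between 15.7 and 18.3. The best Zld interval of replicate 3 lay farther before the gene than those of the other Zld libraries.

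At D the best Bcd interval ranked 12, 13 and 15, at 3L:14173037-14173920 in replicate 1, the strongest Bcd place among the 5 genes. Cad ranked 16, 35 and 42 in an interval of almost the same extent, and 0.115% of genes had as strong a Bcd interval and 0.374% as strong a Cad interval. GAF followed, at ranks 140, 166 and 90, inside the gene at 3L:14177442-14178376. Zld followed at top percents of 1.74, 1.72 and 0.641, with replicate 3 apart from the others. The best Zld interval lay inside the gene in replicate 2 and before it in the other libraries. Dl lay between 1.21 and 1.52, within the range of Zld, so Zld and Dl could not be ordered. Twi lay between 3.05 and 5.20.

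The anteroposterior factors were then compared with the dorsoventral ones, as 6 libraries of Bcd and Cad against 6 of Dl and Twi. Only Bcd and Cad stand for the anteroposterior axis, and only Dl and Twi for the dorsoventral axis. Libraries of a factor are not replicates of an axis, so p measures the spread between these libraries only. All 5 genes had their Bcd and Cad intervals nearer the top, and at each gene the groups did not overlap. The exact two-sided permutation p was 0.00216 for each, the smallest that the splits allow, with an adjusted p of 0.0141 over all genes. Of all genes, 12% were called in this direction and 11.5% in the other, so calls in this direction are common. The difference in mean log2 top percent was −6.47 at prd, which is a geometric mean of 0.0253 against 2.24. It was −5.85 at D, −3.48 at slp2, −3.30 at slp1 and −2.58 at opa, against a median of −0.0027 over all genes. The opa call was lost without any one Cad library, with exact permutation adjusted p between 0.0503 and 0.0523, and when peaks were ranked by fold (−1.16, adjusted p = 0.417). The slp2 call was lost without Dl replicate 1 or 2 or any one Twi library, with exact permutation adjusted p between 0.0536 and 0.0615. With the replicate number as a block, the differences were unchanged and all 5 calls were lost. The exact permutation p within numbers was 0.00926 at each gene, the smallest that those splits allow. It adjusted to 0.0506, so no gene could be called, and this loss cannot decide whether the calls hold.

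Each factor was also set against the 15 libraries of the others. These comparisons share libraries and are given side by side. Bcd was nearer the top at slp1 (−4.48), slp2 (−5.04) and D (−4.77), 3 of 5 genes against 13.2% of all genes, with 2.54% called the other way (exact permutation, adjusted p = 0.0116 each). The slp1 and slp2 calls rest on the same Bcd interval, so they are not separate calls. At prd the Bcd difference was −3.60 and at opa −2.48, with adjusted p of 0.310 and 0.289, where Cad libraries lay above those of Bcd. Cad was nearer the top at prd (−7.06, exact permutation, adjusted p = 0.0164), 1 of 5 genes against 7.99% of all, with 2.79% called the other way. For Cad at opa (−3.37, adjusted p = 0.128) and D (−3.26, adjusted p = 0.182) the exact permutation test did not pass. Every one of these Bcd and Cad calls was lost when any one library of the factor was left out, with exact permutation adjusted p of 0.0594 to 0.0633 for Bcd and 0.0832 to 0.0876 for Cad. In each case the exact permutation p was 0.00735, the smallest that splits of 2 from 17 libraries allow, so no gene could be called. These losses cannot decide whether the calls hold, and the differences themselves moved little. Ranked by fold, the Bcd differences at slp1 (−1.46) and slp2 (−1.44) did not pass. Without the log, none of the Bcd and Cad calls held, with exact permutation adjusted p between 0.0597 and 0.271.

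GAF stood on the other side at 2 genes. It was farther from the top at opa (4.66, exact permutation, adjusted p = 0.00414) and prd (5.71, adjusted p = 0.0226), in both with its 3 libraries below the other 15. Such calls were made at 39.5% of all genes, and calls nearer the top at 12.1%, so 2 of 5 is near the background. At D the difference was 0.12, and at slp1 it was 2.36 with an exact permutation adjusted p of 0.0803. With the window of 10 kb, the best GAF interval for slp1 was the one just before slp2. The slp1 difference passed with a window of 5 kb (2.79, exact permutation, adjusted p = 0.0459) and without the log (2.75 percentage points, adjusted p = 0.00860), but was −0.30 when ranked by fold (adjusted p = 0.847). The GAF ranks depend on the measure used for ordering. At slp2 the GAF fold was 38.7 ± 4.55 (SD, n = 3), the highest of all members, with top percents of 3.13 to 4.78, whereas at D a lower fold of 26.0 ± 1.33 went with 0.330 to 0.535. Ranked by fold, the GAF difference was 3.86 at prd and 2.2 at opa and neither passed (exact permutation, adjusted p = 0.0772 and 0.119). The prd call was also lost without any one GAF library, at adjusted p between 0.0630 and 0.0648 in the exact permutation test.

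No member was called for Dl, Twi or Zld by the exact permutation test, where calls nearer the top were made at 4.56%, 12.5% and 15.7% of all genes and calls farther from it at 0.812%, 4.31% and 1.76%. At an unadjusted p of 0.05, none of the 5 passed for Dl or Zld and 1 did for Twi. That was D, where all Twi libraries were farther from the top than the other 15 (3.91, exact permutation p = 0.0172, adjusted p = 0.0818). Without the log, D was called for Twi (3.43 percentage points, exact permutation, adjusted p = 0.0179). Ranked by fold, Twi was called farther from the top at slp1 (3.09) and slp2 (2.69), with an exact permutation adjusted p of 0.00966 for both. The shares of all genes called without the log or by fold are not given here.

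Other genes of the segmentation cascade were read beside the members. Of 5 other pair-rule genes, eve, ftz, hry (hairy), odd and run, all had Bcd and Cad nearer the top than Dl and Twi, with a median difference of −4.24, against −3.48 for the 5 members. Of 4 gap genes, the earlier tier that divides the embryo into broad domains, hb, Kr and gt were called (median −4.02), and kni was not (−2.10, exact permutation, adjusted p = 0.0882). Of 9 segment polarity genes, the later tier that fixes segment borders, only mid was called (−4.51), and the median was 0.10. Bcd alone was nearer the top at 4 of 4 gap genes, at 3 of 5 other pair-rule genes (eve, hry and run) and at 0 of 9 segment polarity genes by the exact permutation test, where 2 passed without adjustment. Whether the lists differ from each other was not tested.

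The genes most like each member over the 18 libraries were found by Pearson's r of log2 top percent, among genes more than 50 kb away. The nearest were cv-2 for prd (r = 0.98), Cpr66Cb for both slp1 and slp2 (0.98 each), CG5246 for opa (0.98) and CG31810 for D (0.97). Libraries of a factor move together in such an r, so it mainly reflects the order of the 6 factors. Likeness in order was not likeness in level, since the best Cad top percent was 0.418 at cv-2 and 0.00934 at prd. Among the 3 nearest for slp2 was the gap gene Kr (0.97), with Bcd at 0.0151 and Cad at 1.26 top percent.

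Sites were compared next. In each ChIP-nexus library the summits of the 5000 strongest peaks were gathered into sites reaching 200 bp to either side of the best-ranked summit, and a library held a site when such a summit lay in it. The loci had 41 sites, and 33 were held in all 3 libraries of at least 1 factor: 10 of 10 at prd, 10 of 14 at slp1 and slp2, 9 of 12 at opa and 4 of 5 at D. These 33 sites lay in 25 separate stretches, so neighbouring sites can share a wide interval and are not independent. Of the 714 ChIP-nexus intervals, 233 were among the 5000 strongest, and 314 had their summit in one of the 33 sites. The other 400 lay outside them.

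Sites with many factors made up 7 of the 41 sites, counting those held by 4 or more factors, or 17.1%, against 5.39% of 21447 sites of the genome. They were 2 at prd, 3 at slp1 and slp2, 1 at opa and 1 at D. No site at these loci was held by all 6 factors, and only 85 of the 21447 sites of the genome were, so this is no trait of these loci. The count depends on the size of a site, and with sites reaching 100 bp to either side it was 0 at prd, opa and D.

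**Figure D2:**
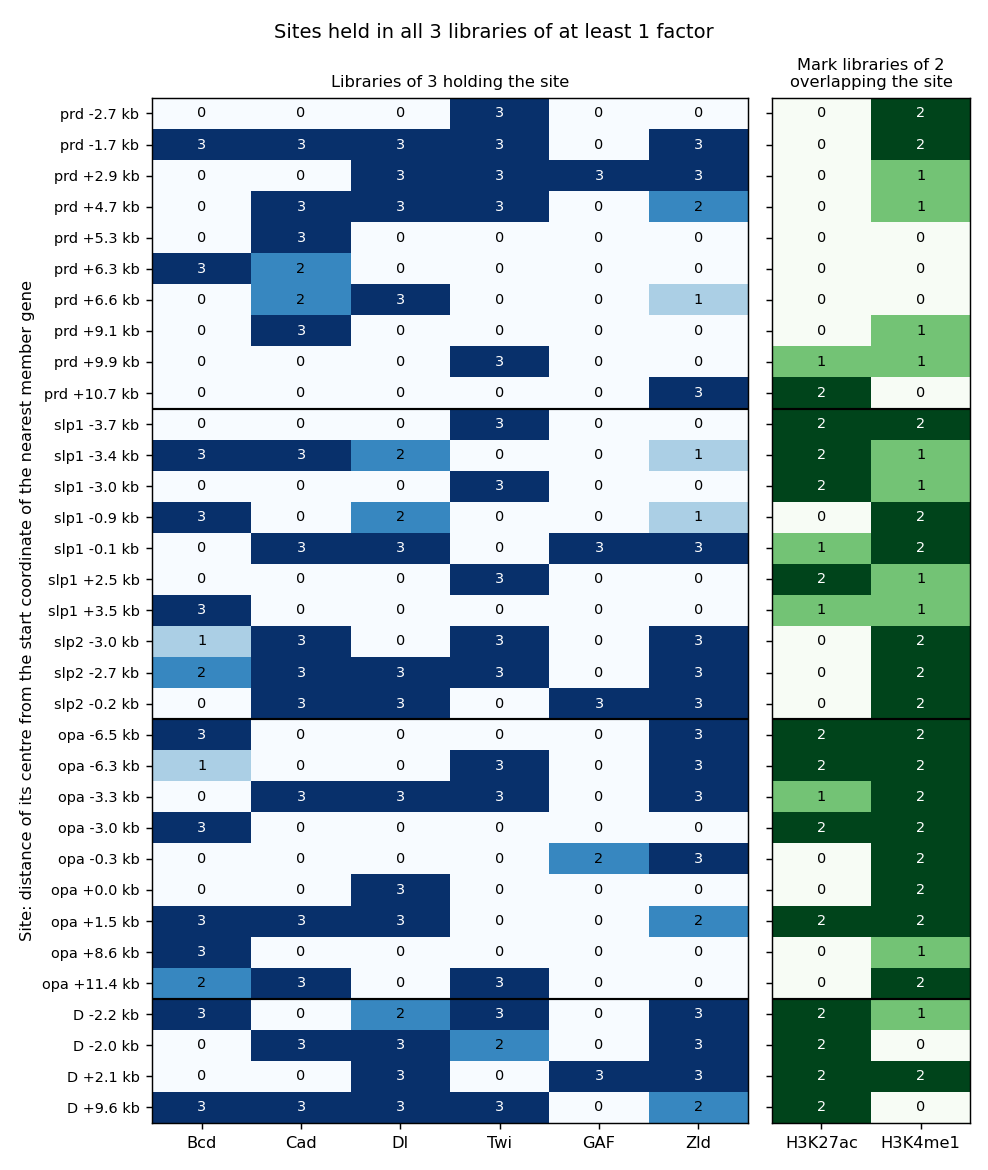
Number of libraries holding each of the 33 sites, for 6 factors (of 3 libraries), and number of mark libraries overlapping it (of 2). Rows are named by the nearest member gene and the distance of the site centre from its start coordinate in kb, and lines part the 4 loci. The site 1.7 kb before prd is held by 5 factors, and GAF holds 4 sites in all its libraries.

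At prd a single site gathered nearly all factors. It lay 1651 bp before the start coordinate and was held by 15 libraries, all those of Bcd, Cad, Dl, Twi and Zld. The summits of the factors were set apart within it. Relative to the site centre, Zld summits lay at −26.7 ± 3.8 bp, Cad at −4.3 ± 6.7, Twi at 84 ± 6.2 and Bcd at 156 ± 3.1 (SD, n = 3), and the ranges of these 4 did not overlap. Dl summits were spread over the site, with an SD of 112 bp. Only 1 GAF library had an interval there, at a fold of 2.33.

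A different set of factors met at the other end of prd. The site 103 bp past the end coordinate was held by all libraries of Dl, Twi, GAF and Zld, with no summit of Bcd or Cad at any rank. GAF had a fold of 21.3 ± 3.33 there and Zld 7.21 ± 0.704 (SD, n = 3). The site 1848 bp past the end was held by Cad, Dl and Twi in every library and by 2 Zld libraries, with a Cad top percent of 0.323 to 0.394. The remaining 7 sites at prd were each held by 1 factor in all its libraries.

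At slp1 and slp2, both genes had a site at the start coordinate with the same 4 factors. These sites lay 87 bp before slp1 and 155 bp before slp2, each held by all libraries of Cad, Dl, GAF and Zld. Below the 5000 strongest they differed. At slp1 all 18 libraries had a summit in the site, with Bcd folds of 1.79 ± 0.0251 (SD, n = 3), while at slp2 no Bcd library had one. Zld had a fold of 14.3 ± 0.770 at slp1 and 7.82 ± 1.71 at slp2, and GAF 31.1 ± 2.79 and 38.7 ± 4.55. The site 2727 bp before slp2 was held by 14 libraries, all of Cad, Dl, Twi and Zld and 2 of Bcd, while the summit of Bcd replicate 3 lay in the neighbouring site. Bcd held 3 sites at this locus in all its libraries, all nearer to slp1 than to slp2.

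**Figure D3:**
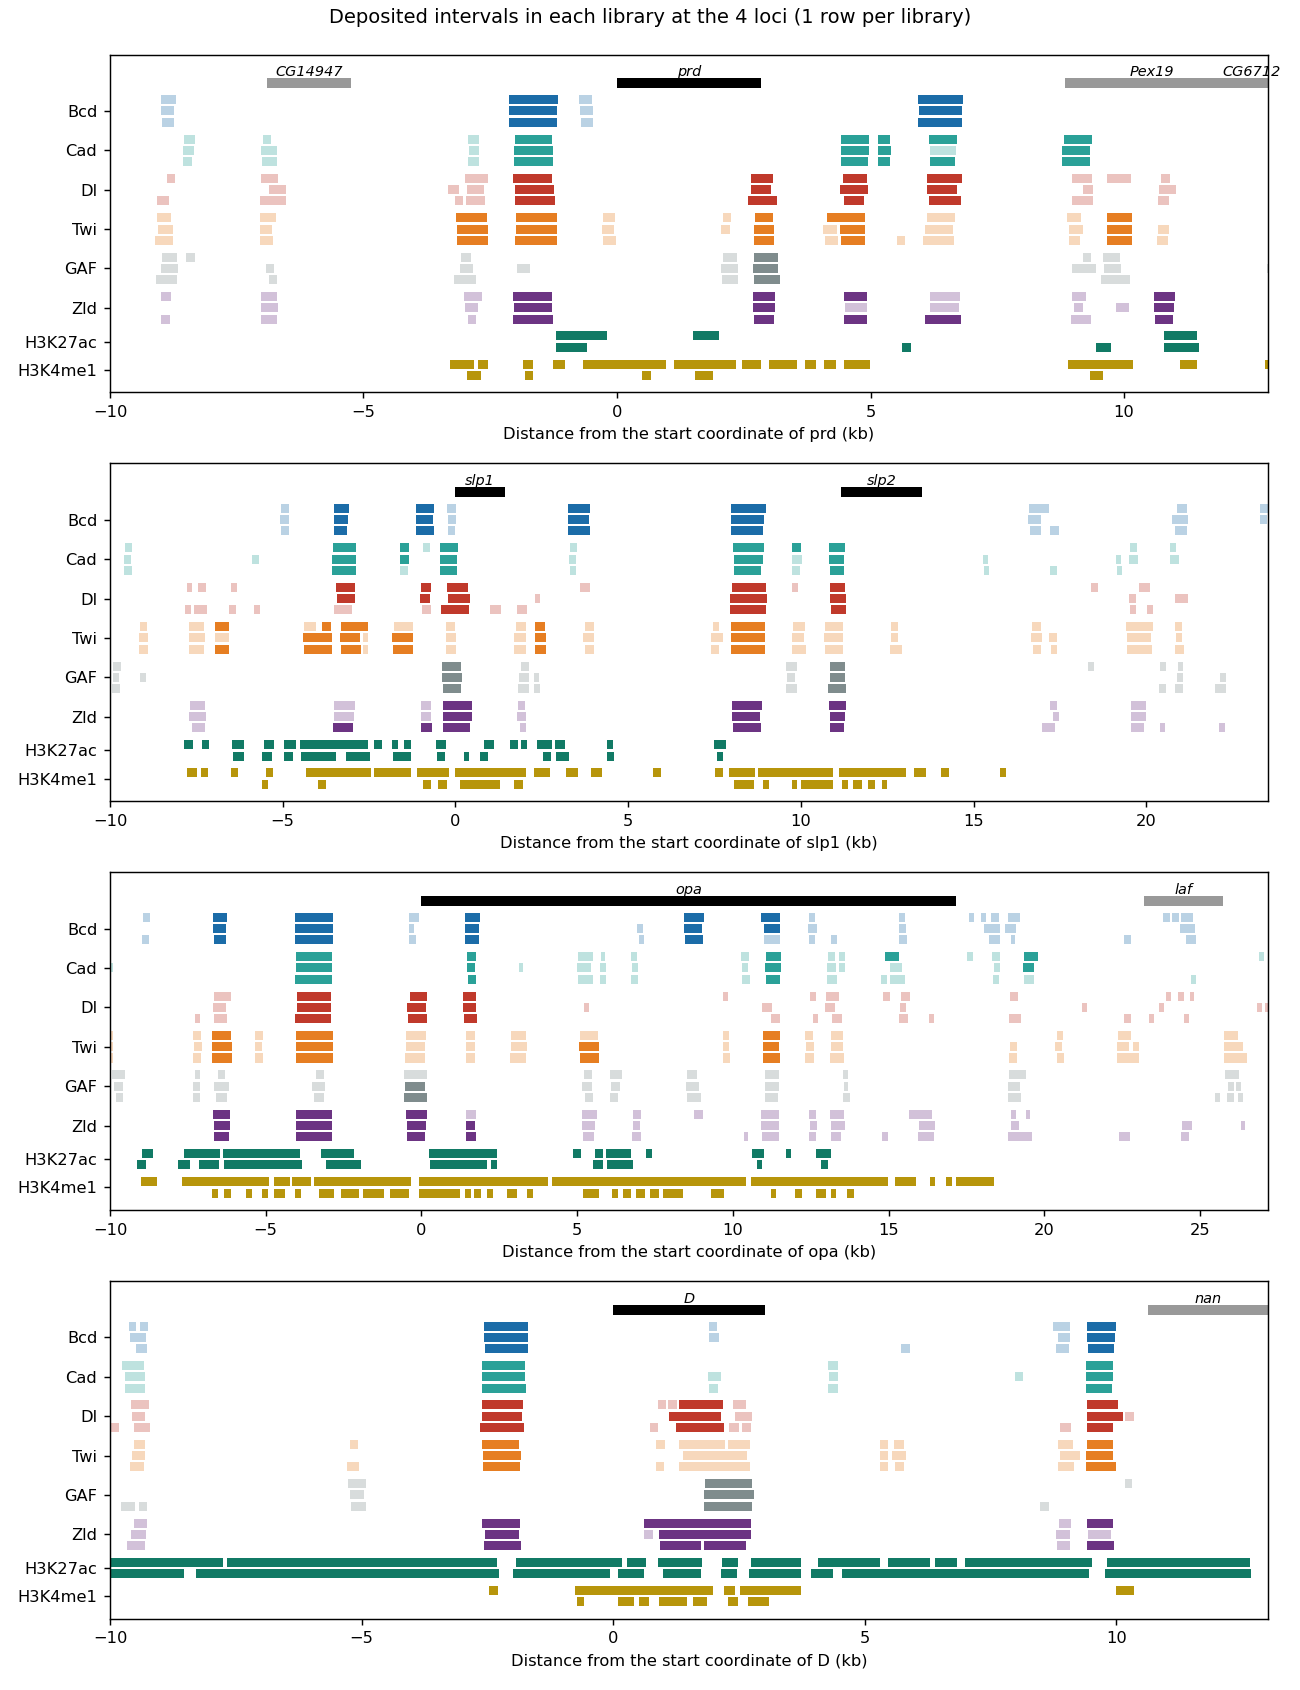
Deposited intervals at the 4 loci, 1 row per library, against the distance in kb from the start coordinate of prd, slp1, opa and D. Factor intervals are in full colour when among the 5000 strongest of their library and pale otherwise, mark intervals are all in full colour, and genes are bars at the top (members black, others grey). Bcd and Cad intervals before D and prd coincide with Dl, Twi and Zld intervals, and H3K27ac covers most of the D window.

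At opa, binding lay both before the gene and inside its 17167 bp. The site 3342 bp before the start coordinate was held by all libraries of Cad, Dl, Twi and Zld. The Bcd intervals covered the same stretch, but their summits formed a separate site 3049 bp before the gene, held by Bcd alone. Inside the gene, 1512 bp from an end, a site was held by Bcd, Cad and Dl in all libraries and by 2 Zld libraries. There Dl folds were 10.8, 6.13 and 10.6, with replicate 2 low. The site 286 bp before the start coordinate was held by all Zld libraries and 2 of GAF, and held the best GAF interval of the locus, with a fold of 18.9 ± 1.88 (SD, n = 3). Cad and Twi met at a further site inside the gene, 5770 bp from an end.

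At D there were fewer sites, and each of the 4 was held by at least 3 factors. A pair of sites 2248 and 2035 bp before the start coordinate lay in the same wide intervals and were held by 11 libraries each. Bcd summits fell in the first, in all 3 libraries, and Cad summits in the second. A site 6573 bp past the end coordinate and 1056 bp from nan was held by 14 libraries, all of Bcd, Cad, Dl and Twi and 2 of Zld, with a Cad fold of 20.4 ± 1.62 (SD, n = 3). The site inside D, 939 bp from an end, was held by Dl, GAF and Zld, with GAF and Zld summits at 1.7 ± 2.1 and −6.7 ± 13.8 bp from its centre and Dl summits at −147 ± 28.2 bp.

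**Figure D4:**
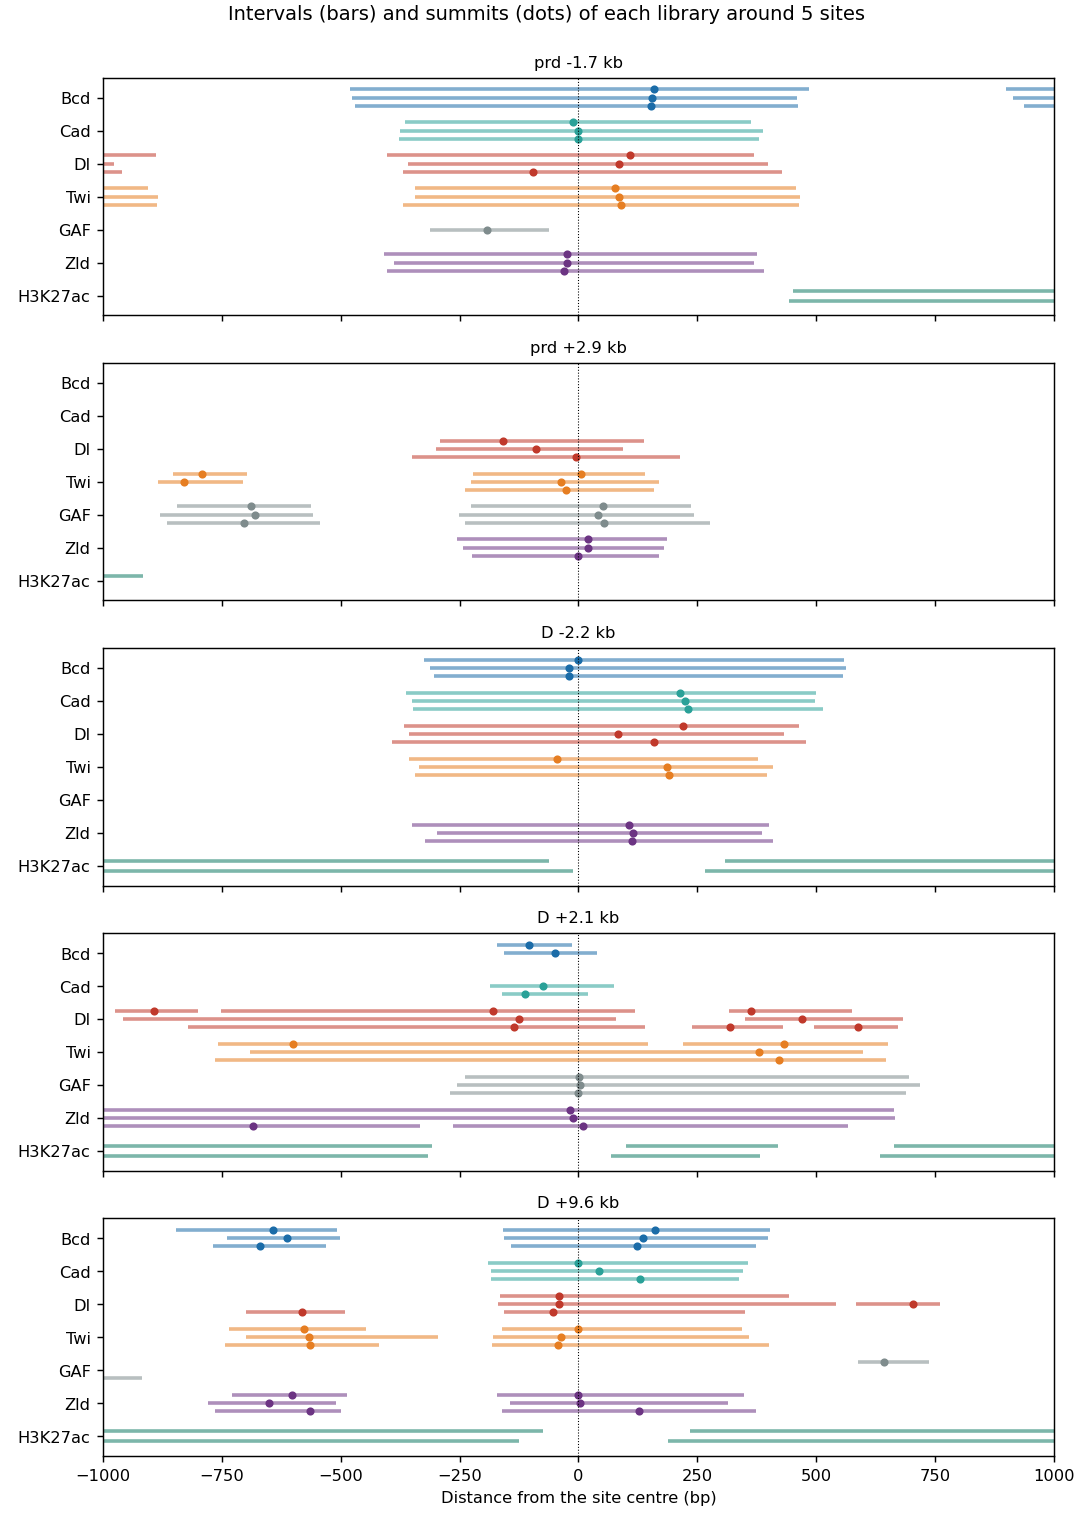
Intervals (bars) and summits (dots) of each library within 1000 bp of the centre of 5 sites at prd and D, named by their distance in kb from the start coordinate of the gene. Bcd and Cad summits lie apart in the sites before prd and D, and the H3K27ac intervals stop short of all 3 centres at D.

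GAF held the fewest sites, 4 against 11 for Bcd, 14 for Cad, 13 for Dl, 15 for Twi and 14 for Zld. Of these 4, 3 lay within 500 bp of a gene end (at prd, slp1 and slp2), while 27.1% of its 4334 sites in the genome did. All 4 were shared with Dl and with Zld, against 12.3% and 16.5% of its sites in the genome. The 0 of 4 shared with Bcd stands beside a genome share of only 8.88%. None was held by GAF alone, against 69.6% in the genome. Cad and Dl shared 9 sites, 64.3% of the Cad sites and 69.2% of the Dl sites, where the genome had 30.6% and 40.1%. Sharing in the loci cannot be tested with so few and neighbouring sites.

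The histone marks separated D and opa. H3K27ac, a mark of active enhancers and promoters, covered 87.6% and 88.2% of the D window in the 2 libraries, and only 0.0288% and 0.0431% of genes had as much. At prd it covered 9.54% and 7.73%, near the medians of 10.9% and 10.6% over all genes, and at opa 26.0% and 22.8%. The neighbours slp1 and slp2 lay on either side of the medians, with 29.1% and 21.8% at slp1 and 7.33% and 4.32% at slp2. Over their joint window it covered 18.6% and 14.0%. H3K4me1, a mark of enhancers, covered most at opa, 66.0% in replicate 1 and 26.1% in replicate 2, which 0.0359% and 0.863% of genes reached. It covered 41.9% and 14.6% at slp1 and slp2, 33.1% and 5.25% at prd and 20.4% and 9.35% at D, against medians of 2.55% and 0.480%. In both H3K4me1 libraries each locus was above the median, and replicate 2 covered far less than replicate 1. With 2 libraries per mark no test was made.

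**Figure D5:**
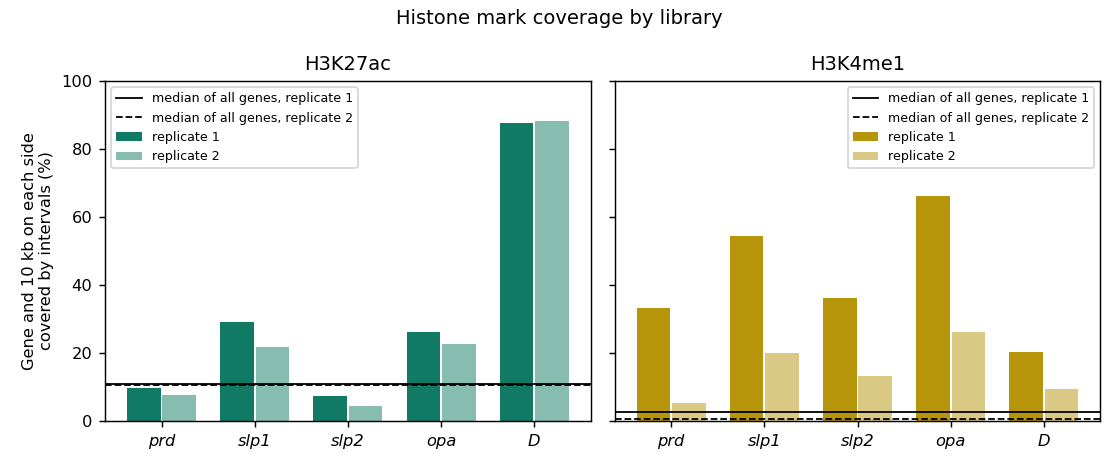
Percent of each gene and 10 kb on each side covered by intervals of H3K27ac and H3K4me1, with 1 bar per library. Lines are the medians over 13911 genes. D stands above the other genes in H3K27ac in both libraries, and opa is highest in H3K4me1.

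At the level of sites, 13 of the 33 overlapped H3K27ac in both libraries, or 39.4%, against 46.2% of 15307 such sites in the genome. For H3K4me1 it was 17 of 33, or 51.5%, against 13.3%. This count depends on the rule, with 7 of 33, or 21.2%, against 6.37% when the site centre had to lie in the mark, and 2 of 33, or 6.06%, against 3.65% with mark intervals at −log10 q of at least 10. For H3K27ac it was 5 of 33, or 15.2%, against 24.3% by the centre rule. The loci differed. H3K4me1 lay at 8 of 9 sites at opa, 6 of 10 at slp1 and slp2, 2 of 10 at prd and 1 of 4 at D. H3K27ac lay at 4 of 4 sites at D, 4 of 9 at opa, 4 of 10 at slp1 and slp2 and 1 of 10 at prd. H3K4me1 replicate 2 set these counts, since without it they were 9 at opa, 10 at slp1 and slp2, 6 at prd and 2 at D.

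The H3K27ac at D flanked the bound sites. In both libraries the centre of each of the 4 sites fell in a gap between mark intervals, where 34.7% of the sites with H3K27ac in the genome had their centre outside the mark. The pair of sites before D shared a gap of 370 bp in replicate 1, between 3L:14167945-14173300 and 3L:14173671-14175792, and of 277 bp in replicate 2. The gap at the site past D was 308 and 313 bp wide, and that inside D 407 and 384 bp. The 1 site with H3K27ac at prd also had its centre outside the mark in both libraries, 45 and 52 bp from the nearest mark interval. At opa and at slp1 and slp2, none of the 8 sites with H3K27ac had its centre outside the mark in both libraries. In replicate 2 alone, centres lay outside it 3351 bp before slp1, 1027 bp past slp1 and 6489 bp before opa. Those gaps were 296, 1608 and 166 bp wide.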

How the data were processed

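ChIP-nexus (18 libraries) and ChIP-seq (4 libraries) peak lists were deposited, 1 per library. The sample of whole cell extract was not used here. Egg collection took 1 h, followed by 2 h at 25 °C and 15 min in 1.8% formaldehyde, per the labels' protocols. The submitters' processing notes name cutadapt 2.5, Bowtie2 2.3.5.1, MACS2 2.2.7.1 and the build dm6. The deposited columns hold the authors' peak score, fold enrichment ratio, −log10 p-value and −log10 q-value, and the summit offset. Read depth is unknown, so no counting interval is given. The GAF and Zld lists are numbered otherwise than their titles, so their replicate numbers are uncertain.

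Gene positions came from RefSeq (Release 6, the same assembly as dm6). Peaks on 2L, 2R, 3L, 3R, 4 and X were ranked by −log10 p, ties by fold. For 13911 protein-coding genes the mean log2 top percent (100 where no summit lay within 10 kb) was compared by exact two-sided permutation over libraries, Benjamini-Hochberg adjusted over all genes, called at 0.05. The statistic was tested on simulated data. The simulation without differences drew all libraries independently, so false calls where libraries of a factor move together were not checked. Sites were seeded by the strongest summits. Marks counted at an overlap of 1 bp with both libraries. Named sites were, per locus, the 3 held by most libraries and each factor's best, and others are described as further examples. Members and gene lists were chosen with earlier results of these data known. Motifs and sequences were not analysed here. No 2 lists had more than 0.116% of identical intervals, which does not count intervals that only overlap. Python 3.11.15, numpy 2.4.6 and pandas 2.3.3 were used.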

Additional observations from a re-analysis of the deposited data

How the results depend on the processing

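Of the 5 genes, the number called in exact permutation tests changed as follows. The share of all genes called under each setting is not given here, so these counts have no background beside them. Ranking by fold gave 1 for Bcd, 2 for Twi and 0 for GAF. Top percent without the log gave 0 for Bcd, 0 for Cad and 1 for Twi, at D. Intervals with −log10 q of at least 10 gave 2 for Cad. Leaving out single libraries gave 4 to 5 for Bcd and Cad against Dl and Twi, 0 to 3 for Bcd, 0 to 1 for Cad, 1 to 2 for GAF and 0 to 0 for Dl, Twi and Zld. The 0 for Bcd and for Cad came without a library of the factor itself, where no gene could be called. With the replicate number as a block, Bcd and Cad against Dl and Twi had 0 (adjusted p = 0.0506 at each gene, exact permutation within numbers) and Cad had 0, with every difference at its unblocked value. Whether the numbers pair the libraries is not known. Deviations of libraries with the same number had a correlation of −0.0487 to 0.129 (median 0.0156, 1 of 45 pairs above 0.1). For different numbers it was −0.120 to 0.0800 (median −0.0110, 0 of 90 pairs above 0.1). Of 18 libraries, 13 correlated best with a library of their own number, which is a hint from the data only.

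Differences that changed sign were all uncalled. For Cad at slp2 the values were −0.64 by fold, −0.027 with a window of 5 kb and −1.19 percentage points without the log. Without the log they were also −2.03 for Dl and −0.47 for Twi at prd, −0.94 for Twi at opa, −0.93 for GAF at D, and −3.36 at prd and −2.24 at opa for Zld. For GAF they were −0.30 at slp1 and −0.40 at slp2 by fold and −0.36 at D with −log10 q of at least 10. Without single libraries the ranges were −0.15 to 0.30 for Cad at slp2, −0.18 to 0.39 for GAF at D, and −0.38 to 0.43 at prd and −0.73 to 0.25 at slp2 for Zld.

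Sites held by a factor numbered 16 at slp1 and slp2 and 15 at opa with the 10000 strongest peaks, 5 at opa with the 2000 strongest, 5 at slp1 and slp2 and 4 at opa by fold, and 7 at D with sites reaching 100 bp to either side. Sites with 4 or more factors numbered 1 at prd and 0 at slp1 and slp2 and at D with the 2000 strongest, 2 at opa with the 10000 strongest, 1 at prd and 0 at opa and D by fold, 0 at prd, opa and D with these narrower sites, and 2 at opa and 3 at D when any overlap of 1 bp counted. Without single libraries, sites held were 10 to 10 at prd, 9 to 11 at slp1 and slp2, 9 to 10 at opa and 4 to 4 at D. Those with 4 or more factors were 2 to 3 at prd, 3 to 3 at slp1 and slp2, 1 to 2 at opa and 1 to 2 at D.

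With the site centre required in the mark, H3K27ac sites were 0 at prd, 2 at slp1 and slp2 and 0 at D, and H3K4me1 sites 0, 3, 4 and 0 at prd, slp1 and slp2, opa and D. With −log10 q of at least 10, H3K27ac sites were 2 at slp1 and slp2, and H3K4me1 sites 0, 1, 1 and 0 in the same order. H3K27ac coverage was then 2.92%, 4.90%, 17.3% and 73.9%. With a 5 kb window it was 19.6% at slp1 and slp2 and 84.9% at D, and H3K4me1 coverage was 24.9% at D. Single libraries gave 1 to 2, 5 to 5, 4 to 5 and 4 to 4 sites for H3K27ac, and 2 to 6, 6 to 10, 8 to 9 and 1 to 2 for H3K4me1. Their coverage was 7.73% to 9.54%, 14.0% to 18.6%, 22.8% to 26.0% and 87.6% to 88.2% for H3K27ac, and 5.25% to 33.1%, 14.6% to 41.9%, 26.1% to 66.0% and 9.35% to 20.4% for H3K4me1. The causes of these changes were not tested. Depth is unknown, so a missing peak does not show that a factor was absent.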
